A study of Rattus norvegicus with 16 samples.

Results

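The 80 genes described here are the cell cycle and DNA replication genes among the 13222 genes of a rat glomerular RNA table. They were taken by a pattern on the gene symbol, which uses no expression value, although the pattern itself was chosen with earlier results of these data known. The pattern covers the cyclins of types A, B, D and E with Cdk1, Cdk2, Cdk4 and Cdk6, the CDK inhibitors Cdkn1b, Cdkn1c and those of the Cdkn2 family, the E2F factors, the origin and helicase genes, the SMC and centromere proteins, and a set of mitotic and nucleotide supply genes. It also took in 3 genes by name only (Aurkaip1, Cdkn2aip and Cdkn2aipnl). RefSeq lists 99 protein-coding rat genes under the pattern, and the 19 outside the table, E2f1, Ccne1 and Ccnb2 among them, were not analysed here.

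Glomeruli, the capillary tufts that filter blood in the kidney, were sieved on day 11 from male Wistar rats of about 175 g, and their poly(A) RNA was sequenced. Puromycin aminonucleoside (PAN) damages podocytes, the branched cells that wrap the glomerular capillaries from outside, and serves as a model of nephrotic syndrome. The 4 groups of 4 rats were control (labelled healthy), PAN by intravenous injection, PAN with pioglitazone, and PAN with GQ-16. Pioglitazone and GQ-16 are agonists of the nuclear receptor PPAR gamma and were given daily by gavage, with a sham vehicle as the alternative. The labels give no dose, litter, batch or pairing, and the 2 sequencing lanes of the design are not tied to libraries. Each library is 1 rat per the labels, and rats are numbered 1 to 4 within a group only as names.

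A dividing cell passes from growth into DNA synthesis when cyclin and CDK pairs inactivate the RB family of repressors and free the E2F factors, which switch on the replication genes. A later wave of genes, held down in resting cells by the DREAM complex through CHR elements and activated through CCAAT boxes bound by NF-Y, builds the spindle, the kinetochore and the machinery of division. Mature podocytes are known to rest outside the cycle and to hold high levels of the CDK inhibitor p57 (Cdkn1c), while mesangial cells, endothelial cells and infiltrating leukocytes can divide.

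Elements of these kinds were looked for in the promoters. RefSeq promoters (assembly GRCr8, 250 bases before to 50 after the start) were found for 61 of the 80 genes. The 250 bases before the start are shown for 4 mitotic genes and for the replication helicase gene Mcm5, as examples, chosen after their values were seen, of genes that were higher in PAN and hold such elements. Capitals mark CCAAT (or ATTGG on the other strand), the CHR core TTTGAA (or TTCAAA), and the E2F-like words TTGGCGC or TTCGCGC (or GCGCCAA or GCGCGAA). Top2a is at chr10:84473094-84473343 on the minus strand, Cdk1 at chr20:19265043-19265292 on the plus strand, Mki67 at chr1:199952594-199952843 on the minus strand, Cdc20 at chr5:137255800-137256049 on the minus strand and Mcm5 at chr19:13488563-13488812 on the plus strand.
Top2a: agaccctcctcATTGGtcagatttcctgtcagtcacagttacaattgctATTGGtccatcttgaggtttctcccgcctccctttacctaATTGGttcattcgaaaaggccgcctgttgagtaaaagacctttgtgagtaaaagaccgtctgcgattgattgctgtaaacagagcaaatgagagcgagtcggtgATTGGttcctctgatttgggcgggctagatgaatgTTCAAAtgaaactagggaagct
Cdk1: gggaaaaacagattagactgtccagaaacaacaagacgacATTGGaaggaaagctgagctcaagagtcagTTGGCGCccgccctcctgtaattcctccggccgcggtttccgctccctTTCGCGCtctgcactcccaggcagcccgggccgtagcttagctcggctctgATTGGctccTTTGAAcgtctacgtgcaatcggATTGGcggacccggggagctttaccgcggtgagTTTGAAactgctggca
Mki67: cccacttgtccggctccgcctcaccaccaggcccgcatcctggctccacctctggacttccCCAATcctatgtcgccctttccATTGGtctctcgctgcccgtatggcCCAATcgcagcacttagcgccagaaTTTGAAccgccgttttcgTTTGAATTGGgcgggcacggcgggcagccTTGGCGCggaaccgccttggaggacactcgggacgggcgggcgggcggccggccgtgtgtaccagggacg
Cdc20: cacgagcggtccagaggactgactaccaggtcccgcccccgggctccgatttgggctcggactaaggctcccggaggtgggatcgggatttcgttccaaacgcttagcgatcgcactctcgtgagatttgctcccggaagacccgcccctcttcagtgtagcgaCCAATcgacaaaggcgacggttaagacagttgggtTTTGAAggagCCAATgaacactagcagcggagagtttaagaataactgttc
Mcm5: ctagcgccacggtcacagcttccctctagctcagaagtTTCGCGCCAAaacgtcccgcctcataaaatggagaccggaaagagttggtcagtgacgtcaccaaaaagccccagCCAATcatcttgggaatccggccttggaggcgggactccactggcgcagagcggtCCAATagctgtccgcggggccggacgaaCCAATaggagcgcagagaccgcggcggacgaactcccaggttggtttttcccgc

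Cdk1 held 3 CCAAT words, 2 CHR cores and 2 E2F-like words, and Mki67 held 4, 2 and 1. Top2a held 4 CCAAT words and 1 CHR core with no E2F-like word, and Cdc20 held 2 and 1 with none. Mcm5 held 3 CCAAT words and 2 overlapping E2F-like words but no CHR core. Not every gene with a large change held them, since Bub1 held none of the 3 kinds, Cenpe no CHR core and Bub1b no CCAAT word. Over the whole 300 bases, CCAAT was found in 36 of 61 promoters (59.0%) against 37.8% of the 9596 promoters of genes in the table. The CHR core was found in 17 of 61 (27.9%) against 11.3%, and an E2F-like word in 12 of 61 (19.7%) against 7.03%. Over all 27457 promoters of the RefSeq table the shares were 37.7%, 18.1% and 3.89%. Among the 19 mitotic genes with a promoter 9 held a CHR core (47.4%), and among the 10 origin and helicase genes 5 held an E2F-like word (50%) and 1 a CHR core. A match describes these letters and is not evidence of a bound site.

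Levels are given in CPM, reads of a gene per 1000000 reads of its library. Changes are differences of group means on the log2(CPM + 1) scale with their standard error (SE), which understates the change of low genes. They come from one limma model of the 4 groups over all genes, and a gene is called when its p-value, after Benjamini-Hochberg adjustment across the 13222 genes, is under 0.05. Libraries held between 13351137 and 21977663 reads in listed genes. The share of mitochondrial reads ran from 13.9% to 39.6% in control and from 5.98% to 10.8% in PAN, so scaling by the library total lifts other genes in PAN. The median log2 change of all genes from control to PAN was 0.28 by library totals and -0.0032 when each library was scaled by its median ratio to a common reference, and both scalings are given. In these bulk samples a change in the number of cells of a type and a change in RNA per cell cannot be told apart.

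Cell cycle genes were higher in glomeruli of PAN rats than in control, and the mitotic genes had the highest median change of the role groups. Top2a, the topoisomerase that untangles sister chromosomes, was 6.26-fold higher by mean CPM, Cdk1, the kinase that drives mitosis, 6.54-fold, and Mki67, the proliferation antigen Ki-67, 5.44-fold. Of the 80 genes 56 were called higher (70.0%) and 0 lower, where 21.7% of all genes tested were called higher and 0.522% lower. At an unadjusted p under 0.05 the count was 64 higher and 0 lower, where 40.7% of all genes were higher and 1.38% lower. By median-ratio scaling 35 were called higher, against 7.12% of all genes. The median log2 change of the 80 genes was 0.74 by library totals and 0.47 by median ratio. The 4 PAN rats lay above all 4 control rats for 54 of the genes (22.4% of all genes) and for 43 by median ratio (10.6% of all genes).

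**Figure D1:**
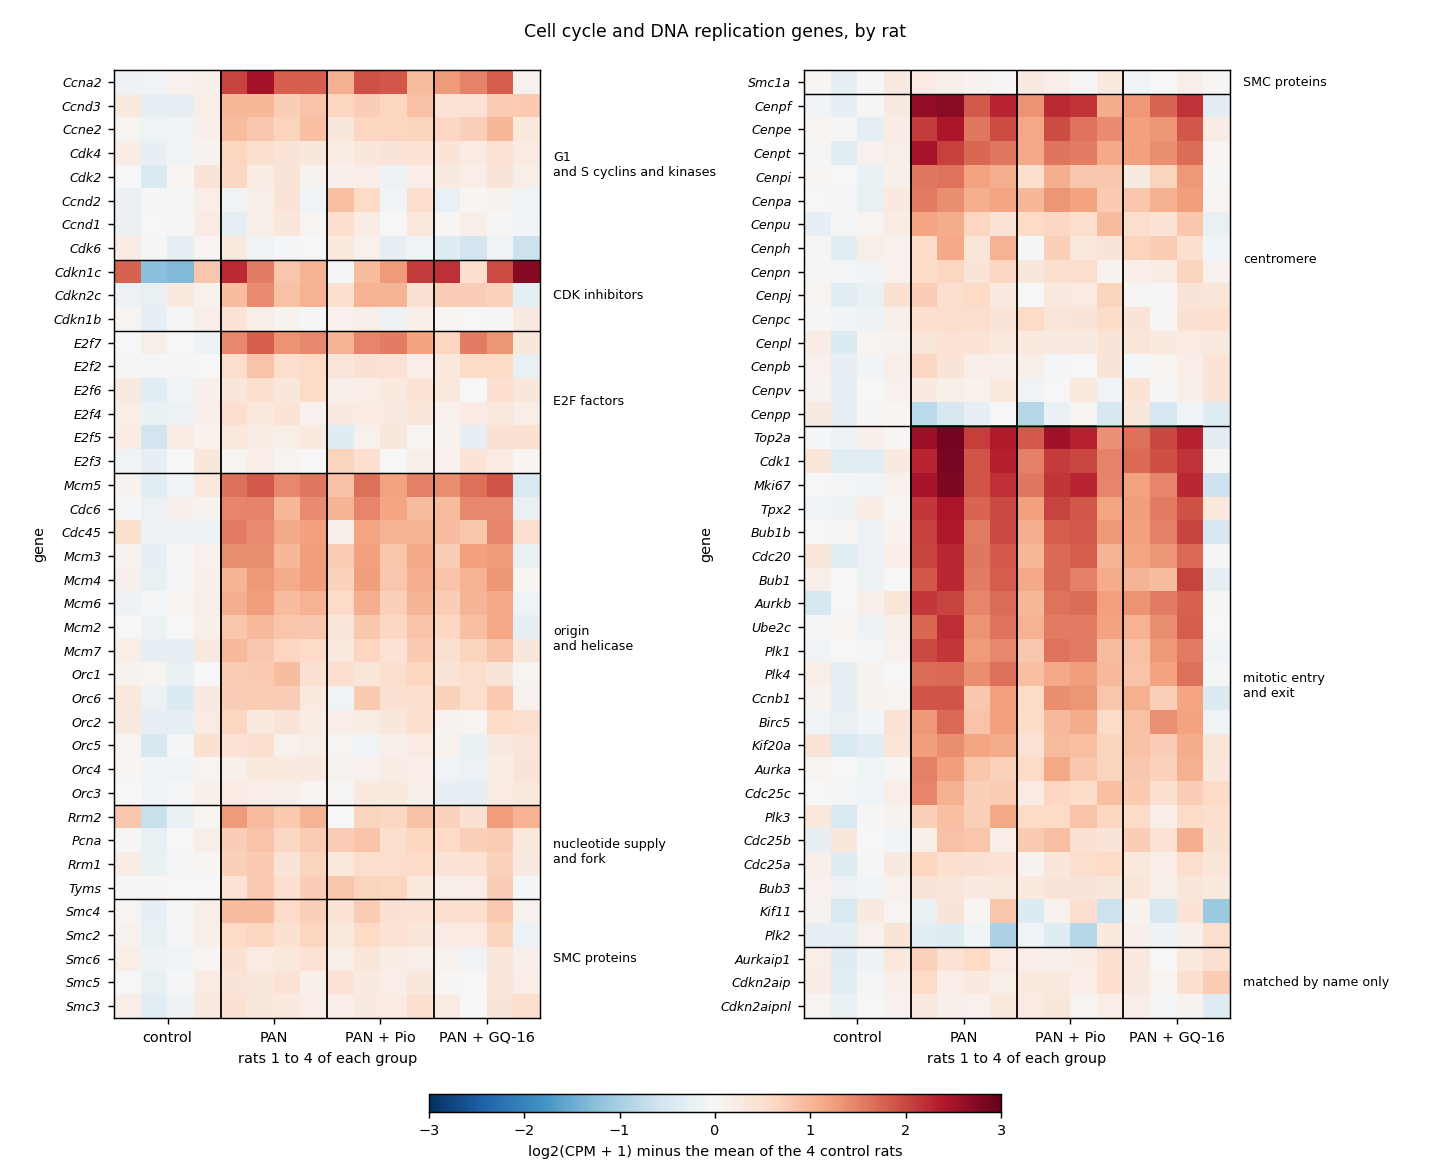
Level of each of the 80 genes in each rat, as log2(CPM + 1) minus the mean of the 4 control rats (colour), grouped by role and ordered by the change from control to PAN. Most mitotic genes are higher in the 4 PAN rats than in the 4 control rats, several rats given a drug reach or pass the lowest PAN rat, and rat 4 of the GQ-16 group is close to the control rats in those genes.

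The low-value filter bears on these counts. The table holds genes with 2 CPM or more in at least 8 of the 16 libraries. Of the 80 genes 18 reached it in fewer than 4 control rats, 7 of them in no control rat (E2f7, Cenpa, Cenpi, Cenpt, Cenpu, Ube2c and Cdc6), and these 7 passed only through treated rats, so they had to differ. Of the 62 genes at 2 CPM in all 16 libraries, 38 were called by library totals and 20 by median ratio, where of the 11979 genes of the table that meet this condition 21.2% and 6.14% were called higher.

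The result rests in part on 3 libraries with over 30% mitochondrial reads, control rats 2 and 3 and GQ-16 rat 2. Without them, an alternative chosen after seeing the data that leaves 2 control rats, 3 genes were called (Tpx2, E2f7 and Ccnd3) against 0.424% of all genes, and 2 by median ratio against 0.31%. The median log2 change of the 80 genes was then 0.63, beside 0.10 for all genes, and Top2a differed by 2.48 with an adjusted p of 0.0688.

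Of the 22 mitotic entry and exit genes 19 were called higher, 17 by median ratio, with a median log2 change of 1.53. Top2a stood at 7.28, 6.69, 8.57 and 7.78 CPM in the control rats and at 49.6, 61.8, 35.2 and 43.3 CPM in the PAN rats. The groups did not overlap, and the lowest PAN rat was far above the highest control rat. Its log2 change was 2.47 (SE 0.42, adjusted p = 0.00164) and 2.19 by median ratio (adjusted p = 0.00949). Mki67 was at 14.98, 14.95, 14.5 and 16.6 CPM in control and at 88.5, 112, 58.8 and 73.3 CPM in PAN, a log2 change of 2.33 (SE 0.42, adjusted p = 0.00226). The control rats were nearly alike in this gene, while PAN rat 2 was well above PAN rat 3. Cdk1 was at 3.66, 1.93, 1.87 and 3.49 CPM in control and at 16.7, 25.1, 12.5 and 17.2 CPM in PAN, a log2 change of 2.34 (SE 0.36, adjusted p = 0.00101).

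Other called mitotic genes act on Cdk1, on the spindle and at exit from mitosis. Ccnb1, the cyclin that activates Cdk1, rose from 2.54 ± 0.44 to 9.13 ± 3.47 CPM (mean ± SD, n = 4 each). Cdc25c, the phosphatase that switches Cdk1 on, had a log2 change of 1.0, Plk1, a kinase of mitotic entry, 1.70, and Plk4, which starts centriole duplication, 1.60. Tpx2, a spindle assembly factor that activates Aurora A, had the smallest adjusted p of the mitotic genes (log2 change 2.08, SE 0.28, adjusted p = 0.000626). Aurka, the gene of Aurora A itself, rose by 1.07 and Aurkb, the kinase of the chromosomal passenger complex, by 1.82. Birc5 (survivin), a partner of Aurora B, rose by 1.27, and Kif20a, a kinesin of cytokinesis, by 1.24. Bub1 and Bub1b, kinase-related proteins of the spindle checkpoint, rose by 1.87 and 2.00. Cdc20 and Ube2c, which drive the anaphase-promoting complex at exit from mitosis, rose by 1.93 and 1.73, with Ube2c at 2 CPM in no control rat. Plk3 and Cdc25a rose by 0.88 and 0.51, and Bub3, a checkpoint protein at 31.2 to 38.9 CPM in control, by 0.33, where Cdc25a and Bub3 were not called by median ratio.

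Mitotic genes not called by library totals were Kif11, Cdc25b and Plk2. Kif11, a kinesin that separates spindle poles, was at 28.8, 19.2, 32.04 and 28.2 CPM in control and at 23.0, 34.8, 27.5 and 48.4 CPM in PAN. Its groups overlapped, and its log2 change of 0.26 (SE 0.32, adjusted p = 0.526) was -0.03 by median ratio. Plk2, a stress-induced kinase of the polo family, was at 55.3 ± 12.7 CPM in PAN and 75.1 ± 16.6 in control (n = 4 each), a log2 change of -0.44 (adjusted p = 0.16). It was -0.74 by median ratio (adjusted p = 0.0505) and, with library number of 25 or more as a term, -0.91 and called lower (adjusted p = 0.0223). Cdc25b, another phosphatase of mitotic entry, had a log2 change of 0.53 (adjusted p = 0.0674).

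**Figure D2:**
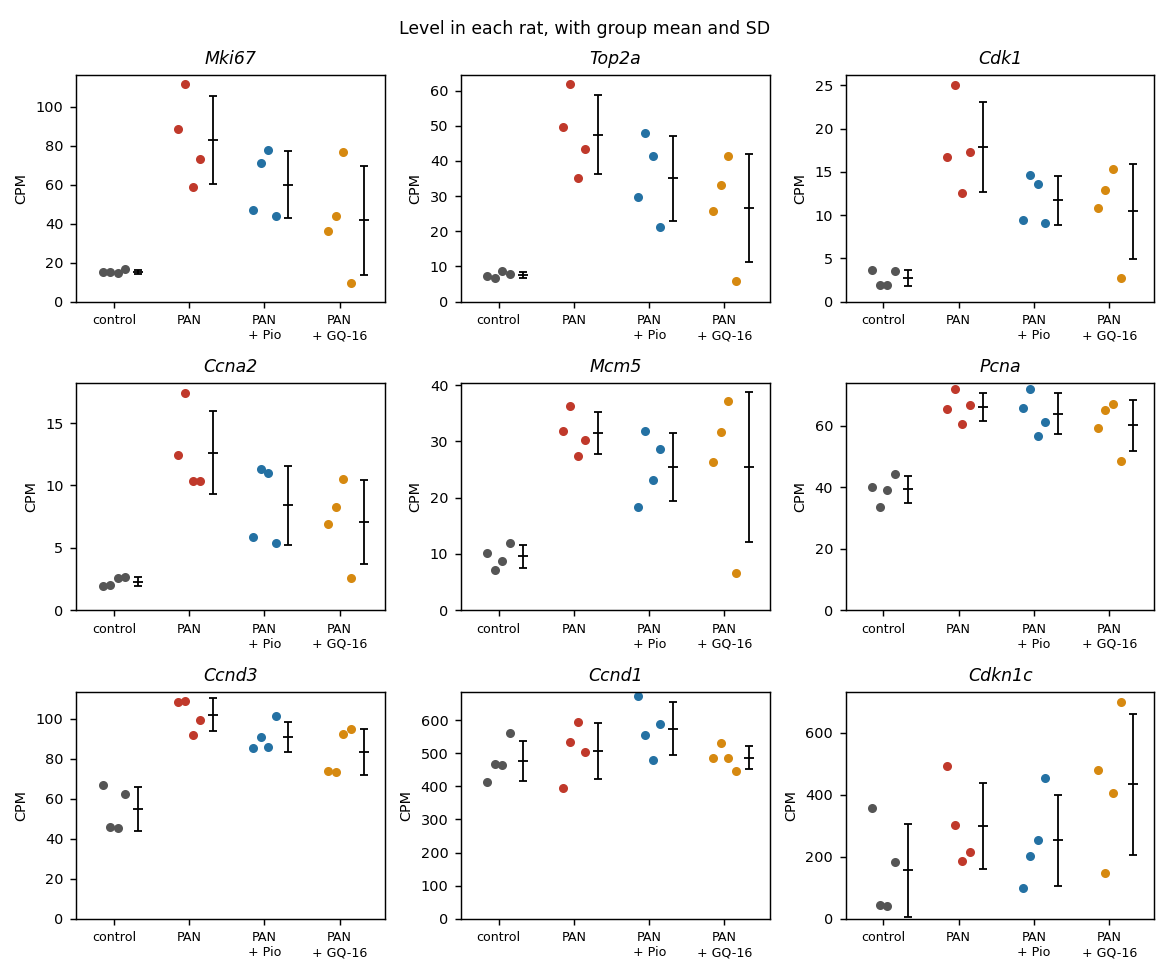
CPM of 9 genes in each rat (points, rats 1 to 4 from left to right) with the group mean and SD (bar at the right of each group). Mki67, Top2a, Cdk1, Ccna2 and Mcm5 separate control from PAN, Ccnd1 does not, and Cdkn1c varies widely among control rats.

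Of the 14 genes named for the centromere 10 were called higher and 5 by median ratio, with a median log2 change of 0.66. Cenpa, Cenpi and Cenpt, called under both scalings, were at 2 CPM in no control rat and had to differ. Cenpu was also at 2 CPM in no control rat, and Cenph in 1. Cenpf and Cenpe, kinetochore proteins that bind microtubules, had the largest log2 changes of the 14 genes, while by the fold of mean CPM that of Cenpt was larger. Cenpf was at 5.69, 4.98, 6.23 and 7.51 CPM in control and at 43.3, 44.7, 24.1 and 33.3 CPM in PAN, a log2 change of 2.37 (adjusted p = 0.0018). Cenpe rose by 2.01. Cenpa, the histone variant that marks the centromere, was between 0.664 and 1.37 CPM in the control rats and at 3.16 to 4.74 CPM in PAN, with a log2 change of 1.31. Cenpt and Cenpi, of the constitutive centromere complex, rose by 1.96 and 1.37. Cenpb, which binds centromeric satellite DNA and was at 148 to 202 CPM in control, differed by 0.34 (adjusted p = 0.0978) and was not called. By library totals Cenpp was the other gene of the 80 with a lower mean in PAN. It was at 5.09 to 7.92 CPM in control and 3.20 to 6.49 CPM in PAN (log2 change -0.38, adjusted p = 0.21). By median ratio 14 of the 80 genes had a log2 change below 0, where 50.5% of all genes did.

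Of the 14 origin and helicase genes 10 were called higher, 7 by median ratio, with a median log2 change of 0.80. The genes of the replicative helicase that were in the table (Mcm2 to Mcm7 without a gap) were all called by library totals. Mcm5 was at 10.2, 7.19, 8.76 and 12.0 CPM in control and at 31.8, 36.4, 27.4 and 30.2 CPM in PAN, without overlap, a log2 change of 1.64 (SE 0.37, adjusted p = 0.00804). Mcm3, Mcm4 and Mcm6 rose by 1.26, 1.18 and 1.08, Mcm2 by 0.86 and Mcm7 by 0.74. By median ratio Mcm2 (adjusted p = 0.145) and Mcm6 (adjusted p = 0.052) were not called. Cdc45, which joins the helicase when origins fire, rose by 1.33, and Cdc6, which loads it, by 1.34. Cdc6 was at 2 CPM in no control rat and Cdc45 in 1. Of the origin recognition complex Orc1 rose by 0.73 and Orc6 by 0.63, and Orc2, Orc3, Orc4 and Orc5 had log2 changes of 0.39, 0.17, 0.26 and 0.30 that were not called. Orc6 was not called by median ratio, and differences among these genes were not tested.

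The 4 genes of nucleotide supply and the replication fork were called by library totals. Pcna, the sliding clamp of the replication fork, was at 40.2, 33.6, 39.1 and 44.3 CPM in control and at 65.6, 71.9, 60.5 and 66.6 CPM in PAN. The groups did not overlap, and the log2 change was 0.74 (SE 0.12, adjusted p = 0.0014), or 0.44 by median ratio (adjusted p = 0.058). Rrm2, the inducible subunit of ribonucleotide reductase, rose by 1.01 and was the 1 gene of these 4 called by median ratio (0.75). Rrm1, the other subunit, and Tyms, thymidylate synthase, rose by 0.64 and 0.61. Among the 6 SMC genes the condensin subunits Smc4 and Smc2 rose by 0.78 and 0.59 and Smc6 by 0.36, and only Smc4 was called by median ratio. The cohesin genes Smc1a and Smc3 had log2 changes of 0.13 and 0.32 (adjusted p = 0.43 and 0.101), and Smc5 0.33 (adjusted p = 0.0535).

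Among the cyclins and kinases of entry into the cycle, 4 of 8 were called. Ccna2, cyclin A2 of DNA synthesis and early mitosis, was at 1.94, 2.03, 2.56 and 2.65 CPM in control and at 12.4, 17.4, 10.3 and 10.3 CPM in PAN, a log2 change of 2.02 (SE 0.31, adjusted p = 0.00088). Ccnd3 was at 66.7, 45.9, 45.3 and 62.2 CPM in control and at 108, 109, 91.7 and 99.2 CPM in PAN. All PAN rats were above all control rats, and the log2 change was 0.90 (SE 0.14, adjusted p = 0.00101), or 0.60 by median ratio (adjusted p = 0.000533). The other D cyclins overlapped between groups. Ccnd1, at 415, 467, 466 and 560 CPM in control and 396, 533, 596 and 504 CPM in PAN, differed by 0.08 (SE 0.15, adjusted p = 0.686). Ccnd2 differed by 0.09 (adjusted p = 0.714), and both changes were below 0 by median ratio (-0.22 and -0.21). Ccne2, an E cyclin, rose by 0.83 and Cdk4, the partner of the D cyclins, by 0.46, where Cdk4 was not called by median ratio. Cdk2 and Cdk6 had log2 changes of 0.34 (adjusted p = 0.121) and 0.03 (adjusted p = 0.883).

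Of 6 listed E2F factors 4 were called by library totals and 1 by median ratio. That 1 was E2f7, which was at 2 CPM in no control rat and had to differ. E2f7, an atypical E2F that represses, was at 0.986, 1.28, 0.98 and 0.809 CPM in control and at 4.42, 5.97, 4.13 and 4.45 CPM in PAN, a log2 change of 1.51 (adjusted p = 0.000804). E2f2, an activator, rose by 0.63, and E2f6 and E2f4, which repress, by 0.44 and 0.33. E2f3 and E2f5 had log2 changes of 0.08 and 0.26 and were not called.

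The CDK inhibitors gave 1 call among 3. Cdkn2c, an inhibitor of Cdk4 and Cdk6, rose from 7.003 ± 1.41 to 15.7 ± 2.93 CPM (mean ± SD, n = 4 each, log2 change 1.07, adjusted p = 0.00585), and was not called by median ratio (0.79, adjusted p = 0.071). Cdkn1c was at 358, 42.9, 41.0 and 184 CPM in control and at 493, 302, 185 and 214 CPM in PAN. Control rats 2 and 3 were low and control rat 1 was above 3 of the PAN rats, so the log2 change of 1.40 (SE 0.65, adjusted p = 0.115) was not called. It was 0.64 with library number as a term and 0.11 without the libraries of high mitochondrial share, which include these 2 control rats. The same control rats had the lowest sums over 7 podocyte markers, 2100.3 and 2114 CPM against 8264 and 3993 CPM in control rats 1 and 4, and the part of this in the level of Cdkn1c was not tested. Cdkn1b, the p27 inhibitor, was at 66.1 ± 8.89 CPM in control and 74.2 ± 9.66 CPM in PAN (mean ± SD, n = 4 each, adjusted p = 0.323).

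**Figure D3:**
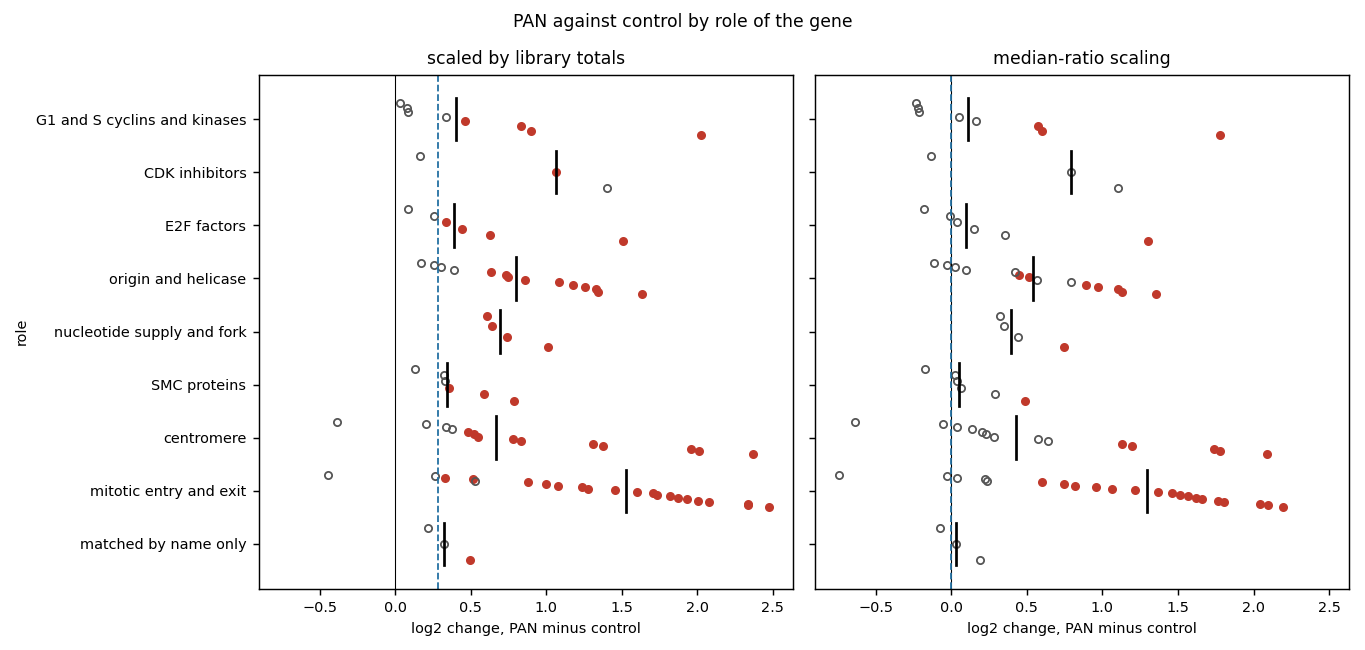
Log2 change from control to PAN of each of the 80 genes (points) by role, scaled by library totals (left) and by median ratio (right). Filled points are called at an adjusted p under 0.05, black bars are role medians and the dashed line is the median of all genes; mitotic genes have the highest role median, 1.53 by library totals and 1.29 by median ratio.

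Many cell cycle genes outside the pattern were called higher in PAN, and the low-value filter bears on these lists too. Of 38 further replication genes 32 were called higher, 16 by median ratio, and of 44 further mitotic genes 39 were called, 36 by median ratio, where 21.7% and 7.12% of all genes were. Of the replication genes 8 were at 2 CPM in fewer than 4 control rats, 5 of them in none, and of the mitotic genes 22 and 13. Those in no control rat had to differ. Of the 22 mitotic genes at 2 CPM in all 4 control rats 17 were called, 15 by median ratio, and of the 30 such replication genes 24 and 9. Of all 12286 genes at 2 CPM in all 4 control rats 20.7% were called higher, 6.0% by median ratio. Anln, a scaffold of the cleavage furrow, rose from 6.54 ± 1.43 to 31.4 ± 5.60 CPM, and Uhrf1, which maintains DNA methylation behind the fork, from 3.05 ± 0.48 to 16.3 ± 3.13 CPM (mean ± SD, n = 4 each). A list of 16 genes held RB and DREAM regulators together with Cks1b, Cks2, Skp2, Wee1 and Pkmyt1. Of these 16, 4 were at 2 CPM in fewer than 4 control rats. The list gave 9 calls, 6 by median ratio, with Cks1b, Skp2 and Pkmyt1 called under both scalings. Of its 12 genes at 2 CPM in all 4 control rats 5 were called, 3 by median ratio. Foxm1 and Mybl2, activators of the mitotic wave, were called (log2 changes 1.59 and 1.71, with Mybl2 at 2 CPM in no control rat). Rb1 differed by -0.05 (adjusted p = 0.737), and Rbl2, Lin9, Lin37 and Lin52 were not called under either scaling. Of 9 checkpoint genes, 1 of them at 2 CPM in no control rat, 7 were called, 5 by median ratio. Of the 8 at 2 CPM in all 4 control rats 6 were called, 4 by median ratio. Ccng1 and Gadd45a, known targets of p53, rose by 1.01 and 1.49. Mdm2, of the same list, rose by 0.43 and was not called by median ratio (0.14). The genes named here were chosen after their values were seen.

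Markers of several cell types moved beside these genes. Of all genes, 21.7% were called higher and 0.522% lower by library totals. By median ratio 7.12% were called higher and 200 of 13222 lower. The sum over 6 markers of mesangium and smooth muscle was 254 to 641 CPM in control and 969 to 1753 CPM in PAN, and all 6 were called higher (5 by median ratio). The sum over 10 leukocyte markers was 143 to 199 CPM in control and 207 to 618 CPM in PAN, with 5 called by library totals and 0 by median ratio. The upper end was PAN rat 1, and the next highest was PAN rat 2 at 285 CPM. Podocyte markers summed to 2100.3 to 8264 CPM in control and 6531 to 9660 CPM in PAN, with 2 of 7 called, 1 by median ratio. Of 6 listed endothelial markers 5 were analysed, and of these and of 6 proximal tubule markers 0 were called under either scaling. Of 4 parietal epithelial markers 1 was called, 0 by median ratio, and of 5 distal nephron markers 3 were called lower, 2 by median ratio. Of 6 listed skeletal muscle markers 2 were among the genes of the table, Pygm and Myom2, and both were called higher under both scalings, while the other 4 were not analysed here. The part of any of these in the cell cycle result was not tested. Of the PAN libraries 3 of 4 carry numbers of 25 or more in their titles and of the control libraries none; with this as a term, 42 of the 80 genes were called higher, where 2.88% of all genes were, and 1, Plk2, was called lower.

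**Figure D4:**
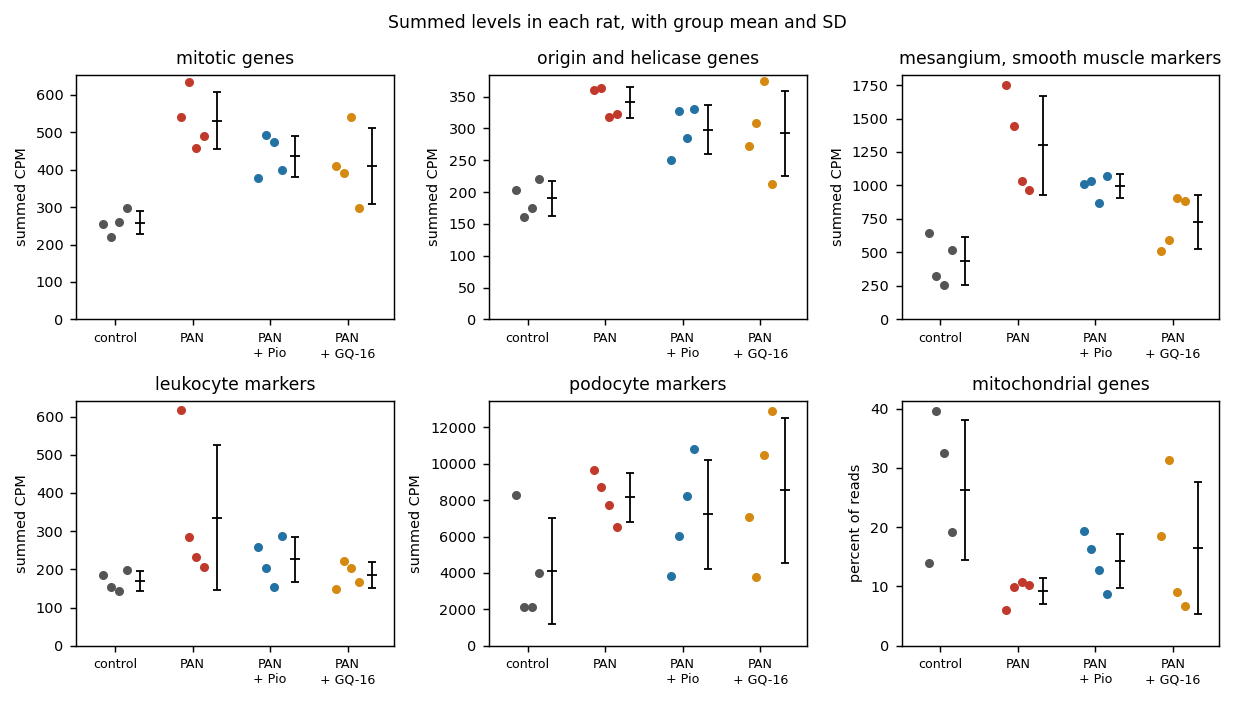
Summed CPM of the 22 mitotic genes, the 14 origin and helicase genes and 3 marker lists, and the percent of mitochondrial reads, in each rat (points) with the group mean and SD. Mitotic sums do not overlap between control and PAN, and GQ-16 rat 4 is at 296.5 CPM with the highest podocyte sum of all rats, 12880 CPM.

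With pioglitazone, most cell cycle genes had lower means than in PAN, and no difference from PAN was called. Of the 80 genes 70 had a log2 change below 0, 61 by median ratio, where 72.6% and 53.5% of all genes did, with a median log2 change of -0.21 beside -0.09 for all genes. The count called was 0, as it was for all genes (0.0%), 4 genes had an unadjusted p under 0.05, where 3.74% of all genes did, and limma with voom weights also called 0. Kif20a, with 31.3, 34.6, 29.5 and 28.1 CPM in PAN and 17.2, 25.02, 24.4 and 20.3 CPM with pioglitazone, had the smallest p (log2 change -0.50, adjusted p = 0.916), followed by Cenpi (-0.58) and Cdc25c (-0.42). The 4 pioglitazone rats lay below the 4 PAN rats in 5 of the 80 genes, Kif20a, Cenpi, Plk4, E2f2 and Ccne2, where 2.36% of all genes did so. Ccnd2 had the smallest p in the other direction (0.39, unadjusted p = 0.0445 in limma), followed by E2f3 (0.25) and Ccnd1 (0.19). Mki67 was at 47.3, 71.3, 77.8 and 43.8 CPM with pioglitazone, overlapping PAN, and its log2 change of -0.46 had a 95% interval from -1.36 to 0.43. Library numbers of 25 or more fall on 3 PAN rats and on 1 rat of each drug group. With this as a term the log2 change was -0.90 for Mki67, -0.97 for Top2a (-0.46 without it) and -0.94 for Cdk1 (-0.56 without it), and 0 of the 80 genes were called.

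Compared with control, 32 of the 80 genes were called higher in the pioglitazone group, where 4.7% of all genes were, and 8 by median ratio, where 2.22% were. This comparison shares its control rats with that of PAN. The smallest adjusted p values were those of E2f7 (log2 change 1.31, adjusted p = 0.00961), Pcna (0.69), Tpx2 (1.58), Cenpe (1.54), Ccnd3 (0.73), Cdk1 (1.78), Cenpa (1.08), Top2a (2.01), Ccna2 (1.45) and Cenpt (1.36). Of these, E2f7, Cenpa and Cenpt reached 2 CPM in no control rat and so had to differ from control in some treated group. The 32 genes were not counted again without such genes. The count depended on single rats. It was 1 without pioglitazone rat 2 (0.416% of all genes), 14 without pioglitazone rat 4 (1.19%) and 20 without pioglitazone rat 3 (4.01%). It was 2 without control rat 2 (0.333%), 4 without control rat 3 (0.469%) and 0 without the 3 libraries of high mitochondrial share, where 0 of all genes were called.

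With GQ-16, most cell cycle genes also had lower means than in PAN, and the size of this depended on 1 rat. Of the 80 genes 73 had a log2 change below 0, 62 by median ratio, where 79.3% and 48.3% of all genes did, with a median log2 change of -0.31 beside -0.11 for all genes. The count called was 0, while 0.0151% of all genes were called, and limma with voom weights called 0. At an unadjusted p under 0.05 there were 25 lower and 1 higher, where 7.93% of all genes were lower and 0.34% higher. By median ratio there were 14 and 1, against 4.5% and 2.37%. The 3 smallest p were those of Cenpi (log2 change -0.80, adjusted p = 0.411), Cenpe (-0.85) and Mki67 (-1.26, SE 0.42, adjusted p = 0.435). In the other direction they were those of Plk2 (0.61, adjusted p = 0.512), Cenpp (0.22) and E2f3 (0.13). Mki67 was at 36.3, 44.0, 77.1 and 9.49 CPM with GQ-16, so that 1 rat was among the PAN rats and 1 was below every control rat. Marker lists moved beside these genes, with median log2 changes from PAN of -0.95 for mesangium and smooth muscle, -0.62 for leukocytes and -1.71 for the 2 skeletal muscle markers analysed, and of -0.51, -0.39 and -1.21 with pioglitazone. The other 5 marker lists had medians from -0.08 to 0.42 with GQ-16 and from -0.38 to 0.38 with pioglitazone. Of all these markers 0 were called in either comparison, and their part in the cell cycle values was not tested.

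GQ-16 rat 4 differed from its group in these genes. Its Top2a level was 5.76 CPM, beside 25.7 to 41.5 CPM in the other 3 rats and 6.69 to 8.57 CPM in control, and its Mcm5 level was 6.54 CPM beside 26.3 to 37.2 CPM. It was the lowest rat of the group in 44 of the 56 genes called in PAN against control, and in 50 by median ratio. It was above the highest control rat in 21 of these 56 genes (37.5%), while it was above in 81.9% of all 2874 genes called higher in PAN. By median ratio the shares were 14.3% and 64.8%. In the other 7 rats given either drug the share was 83.9% to 96.4% of the 56 genes and 34.9% to 95.6% of all called genes. Its library, numbered 27, held 16591993 reads, 6.76% of them mitochondrial, and its sum of mesangial and smooth muscle markers was 887 CPM, within the 511 to 906 CPM of its group. Its podocyte sum was 12880 CPM beside 3760 to 10502 CPM in the other 3 rats, its Cdkn1c level 698 CPM beside 148 to 480 CPM, and its skeletal muscle sum 229 CPM beside 44.9 to 131 CPM, each the highest of its group. The part of these in its cell cycle levels was not tested. Without this rat the log2 changes from PAN were -0.69 for Mki67, -0.49 for Top2a and -0.40 for Cdk1, against -1.26, -1.07 and -0.88 with it.

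The same rat bears on GQ-16 against control. There 0 of the 80 genes were called, with 0.151% of all genes called higher, 49 genes at an unadjusted p under 0.05, against 23.9% of all genes, and 0 calls by limma with voom weights. By median ratio 1 gene was called, Ccnd3, and 0.666% of all genes. Without GQ-16 rat 4 the count was 28 (1.16% of all genes), with a log2 change of 1.65 for Mki67 (adjusted p = 0.00394), and without control rat 1 it was 24 (11.6% of all genes).

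The 2 agonists were not told apart by these genes. Of the 80 genes 0 were called between them, as of all genes (0.0%), 3 had an unadjusted p under 0.05, where 5.94% of all genes did, and limma with voom weights called 0. The smallest p were those of Ccnd2 (log2 change of GQ-16 from pioglitazone -0.53, adjusted p = 0.724), Cdk6 (-0.44) and Tyms (-0.35), and in the other direction Plk2 (0.43), Cenpv (0.22) and Cdkn1c (0.78). Mki67 differed by -0.79 with a 95% interval from -1.68 to 0.10 and Top2a by -0.61 with an interval from -1.50 to 0.29, which leaves room for changes of more than 2-fold in these genes. Without GQ-16 rat 4 the differences were -0.22 and -0.02. The median log2 change of the 80 genes between the drugs was -0.12, with 23 above 0, and without this rat it was 4.2e-05, with 40 above 0.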

How the data were processed

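Poly(A) RNA of sieved glomeruli was sequenced from 16 rats, 4 in each of 4 groups, with a stranded library kit per the labels' protocols. HISAT2, featureCounts of Subread and limma are named with the build Rnor_6.0 in the submitters' processing notes, and the gene annotation is not given in the sources used here. The deposited values are log2 CPM of the form that voom writes, from reads plus 0.5 over a total plus 1. Undoing this gave whole reads for 100% of values within 0.05 read, which also gave the library totals. No count model was applied to these reads.

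CPM (2 to the power of the deposited value) were compared in limma 3.58.1 (R 4.3.3) on log2(CPM + 1), with 4 group means, 16 libraries and variances trended on mean level. Tests were two-sided, and adjusted p-values are Benjamini-Hochberg values over 13222 genes. The members, role lists, marker lists and motifs were chosen with earlier results of these data known, so no list carries a test of its own. Named genes are at most the 25 called in PAN against control with the smallest p, a list of standard markers whatever their values, the 3 smallest p in each direction for comparisons between treated groups, and up to 10 called for a drug against control. All other genes given with values, called ones included, were added after their values were seen. Alternatives were median-ratio scaling, quantile normalization, a pseudocount of 0.1, the deposited scale, voom weights, a mean of at least 10 CPM, only the 2 groups compared, library number of 25 or more as a term, library numbers up to 15 only, a minimum change of 2-fold and each library left out. Median ratio with library number as a term, and leaving out libraries above 30% mitochondrial reads under either scaling, were added after seeing the data. Libraries of a group differed by more than counting noise. The p-values measure the spread between rats, with each library taken as 1 rat per the labels.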

Additional observations from a re-analysis of the deposited data

Results flagged for a closer look

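Within groups of 4 rats, 17 of 344 sets of values had 1 rat whose gap to the nearest other rat took up more of the range on the log2 scale than Dixon's test allows at the 95% level. Chance gives about 1 in 20, or 17.2. In control, Cdc45 was high in rat 1 (3.09 CPM, others 1.61 to 1.65), Ccnb1 was low in rat 2 (1.88 CPM, others 2.71 to 2.81), and the sum over cyclins and kinases of entry into the cycle was high in rat 4 (783 CPM, others 621 to 645).

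In PAN, Mcm2 was high in rat 2 (49.5 CPM, others 44.3 to 45.2), Cdc6 and Plk4 were low in rat 3 (3.96 and 7.26 CPM, with others from 5.57 and 8.93 CPM up), Orc6 was low in rat 4 (2.87 CPM, others 4.24 to 4.38), and the mitochondrial share was low in rat 1 (5.98%, others 9.87% to 10.8%).

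With pioglitazone, Ccne2 and Cdc45 were low in rat 1 (6.39 and 2.25 CPM, with others from 8.04 and 5.05 CPM up), and Cdk2 and Cdkn1b in rat 3 (15.6 and 58.4 CPM, with others up to 20.7 and 74.5 CPM). Smc4 was high in rat 2 (70.2 CPM, others 54.3 to 56.4), the sum over the 3 genes matched by name only was high in rat 4 (344 CPM, others 286 to 291), and distal nephron markers were low in rat 2 (534 CPM, others 612 to 627). With GQ-16, Cdkn2c was low in rat 4 (5.51 CPM, others 11.7 to 12.3) and the E2F sum was high in rat 3 (125 CPM, others 106 to 107).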

How the results depend on the processing

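The count of 56 genes higher in PAN than in control stayed within 1.5 times with several alternatives. These were a pseudocount of 0.1, the deposited scale, voom weights, only the 2 groups compared and library number as a term. Under them 2.88% to 22.3% of all genes were called higher. The count was 35 by median ratio (7.12% of all genes) and 32 by quantile normalization (6.34%). It was 34 of the 51 genes with a mean of at least 10 CPM (23.4% of all such genes). It was 30 with at least a 2-fold change (5.8%) and 37 by median ratio with library number (2.62%). Without the libraries of high mitochondrial share it was 3 (0.424%), and 2 by median ratio (0.31%). Library numbers up to 15 leave 1 PAN rat, taken to vary like the other groups. The median log2 change was then 0.70, beside 0.26 for all genes. Leaving out each library gave counts of 40 to 61, where 6.21% to 36.8% of all genes were called higher. The count lower in PAN was 1 with library number as a term under either scaling. Of the 56 genes, 30 stayed called under each of 7 alternatives that kept all genes and libraries, and without each library in turn. These 30 include E2f7, Cenpa, Cenpi, Cenpt, Ube2c and Cdc6, which were at 2 CPM in no control rat and had to differ. The share of all genes that stayed called in this way was not counted. The 32 genes higher with pioglitazone than in control (4.7% of all genes) became 8 by median ratio (2.22%) and 11 by quantile normalization (2.22%). They became 17 at a mean of at least 10 CPM (3.79%) and 19 at 2-fold (2%). Under either scaling the count was 0 without the libraries of high mitochondrial share, as it was for all genes. It was 1 to 39 without each library, where 0.333% to 12.2% of all genes were called higher. The 0 with GQ-16 against control became 1 by median ratio and by quantile normalization, 3 with library number, 27 with numbers up to 15, 4 by median ratio with library number, and 0 to 28 without each library. Counts of 0 between treated groups stayed 0 under every alternative run. The cause of these differences was not tested.

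Of 2958 values of named genes under alternatives, 2533 kept direction and side of the threshold, 374 lost the call and 14 gained it. The other 37 changed sign, each of a gene without a call in that comparison. These values cover 107 pairs of a gene and a comparison. Some genes given with values above, such as Smc1a, Cenpb and Orc2, were not among them. In PAN against control the log2 changes by median ratio, quantile normalization, median ratio with library number, and median ratio without high mitochondrial shares were -0.22, -0.27, -0.10 and -0.055 for Ccnd1, -0.21, -0.20, -0.17 and -0.032 for Ccnd2, -0.23, -0.31, -0.045 and -0.21 for Cdk6, -0.13, -0.12, -0.20 and -0.10 for Cdkn1b, and -0.18, -0.26, -0.024 and -0.14 for E2f3. Kif11 was at -0.028 and -0.047 under the first pair, and Cdkn1c at -0.0025 under the last. With library numbers up to 15, Ccnd2 was at -0.13, Cdk6 at -0.0072, Cdkn1b at -0.032, E2f3 at -0.0058 and Cenpp at 0.017, Cenpp at -0.11 for GQ-16 against PAN, and Cdk1 at 0.055 between the drugs. Without high mitochondrial shares alone Cdk6 was at -0.11 and E2f3 at -0.038. Leaving out each library gave -0.00090 to 0.19 for Ccnd1, -0.022 to 0.16 for Ccnd2, -0.056 to 0.11 for Cdk6, and -0.56 to 0.15 for Cdk1 between the drugs. No paired analysis was possible because the replicate numbers are only names. Depth limits the lowest genes, since the smallest count behind a value was 7 reads (Cenpt in 1 library).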
